A study of Mus musculus with 2 samples.

Results

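The genes considered here are 9 transcription factors that divide the early brain along its front-to-back axis, namely Otx1, Otx2, Emx1, Emx2, Lhx2, Fezf2, En1, En2 and Gbx2. They were chosen by gene symbol, and each symbol matched 1 of the 45777 genes of the mouse expression table. RNA-seq had been performed on 1 teratoma library derived from E14 cells and 1 derived from E14-Sox2TA/WT cells. E14 is a mouse embryonic stem cell (ESC) line with wild-type Sox2, and E14-Sox2TA/WT cells are E14 cells selected as clones after CRISPR/Cas9 editing, with threonine 258 of Sox2 replaced by alanine on 1 allele and the other allele left wild-type. A teratoma is a tumor in which pluripotent cells differentiate into tissues of all germ layers. In both groups, cells in Matrigel were placed under the skin of BALB/c-nu mice, 3 mice per group, and tumors were taken on day 14. These nude mice lack mature T cells, and host cells inside a tumor are also of mouse, so their reads cannot be told apart from those of the graft. Whether RNA of several tumors was pooled is not stated, so each group is 1 library, no difference in these RNA-seq data has a replicate check, and no p-value is given. One label of the extraction describes RNA of the ESC line, whereas the tissue label of both libraries is teratoma.

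In the early neural plate, Otx2 marks the future forebrain and midbrain and Gbx2 the future anterior hindbrain, and the border where they meet forms the isthmic organizer, a signaling center that secretes Fgf8 and Wnt1. En1 and En2 are switched on around this border and are required for the midbrain and cerebellum. Ahead of it, Lhx2, Emx2, Emx1 and Fezf2 pattern the dorsal telencephalon, from which the cerebral cortex arises, while Otx1 is used in the forebrain, midbrain and later in deep cortical neurons. Otx2, Lhx2 and Gbx2 also have roles outside this map. Otx2 is expressed in primed pluripotent cells, anterior visceral endoderm, retina and choroid plexus, Gbx2 in ESCs, and Lhx2 in the eye and in hair follicles.

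The libraries held 50529171 reads on genes for the E14 teratoma and 49030281 for the E14-Sox2TA/WT teratoma, and mitochondrial genes took 5.17% and 9.70% of all TPM. TPM is the read count of a gene corrected for its length and rescaled to a fixed sum per library, so levels below are comparable between genes. Sox2 itself, counted from both alleles together, had 14585 reads (TPM 246) in the E14 teratoma and 8623 reads (TPM 130) in the E14-Sox2TA/WT teratoma, and a gene-level count cannot show the mutation. A total of 4 Y-linked genes (Ddx3y, Eif2s3y, Kdm5d and Uty) summed to 5453 reads with E14 and to 0 with E14-Sox2TA/WT, so the libraries also differ in Y-linked transcripts, and this cannot be told apart from the genotype. Intervals given below for ratios between the libraries are 95% Clopper-Pearson intervals of the reads. Those of single levels are 95% exact Poisson intervals, and those of quotients of within-library ratios are exact conditional intervals. They cover counting error only and compare these 2 libraries, not the conditions. The median log2 ratio of all genes was -0.058 among the 18558 genes that reached a TPM of 1 in either library.

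The genes grouped here as cortical field, Lhx2, Fezf2, Emx2 and Emx1, were present at much lower levels with E14-Sox2TA/WT, except for Emx1, which was hardly detected. The group is named for a role in development, and Lhx2, for example, is also needed for the eye field. The name does not show that cortex was present in either tumor. Together these 4 genes summed to a TPM of 68.2 in the E14 teratoma and 2.74 in the E14-Sox2TA/WT teratoma, 24.8-fold lower. Since a teratoma is a mixture of tissues, fewer cells of a type and less RNA per cell cannot be told apart here or in any result that follows.

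Lhx2 (chr2:38339271-38369737 on GRCm38, gene ID 16870), a LIM-homeodomain factor that selects cortical over hem identity and is needed for the eye field, had 3057 reads in the E14 teratoma and 105 in the E14-Sox2TA/WT teratoma. Its TPM was 50.2 and 1.63, 30.8-fold lower (interval 25.3 to 37.8). Lhx2 was the most abundant of the 9 genes in the E14 teratoma, and its log2 ratio, with 1 added to each TPM, ranked 11th lowest among the 11578 genes that reached a TPM of 10 in either library.

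Fezf2 (chr14:12338992-12346803, gene ID 54713), a zinc finger repressor that specifies corticospinal neurons and patterns the forebrain, had 1032 reads in the E14 teratoma and 20 in the E14-Sox2TA/WT teratoma. Its TPM was 8.51 and 0.136, 62.6-fold lower (interval 40.3 to 103), the largest ratio among the 9 genes. It did not reach a TPM of 10, so it lies outside the study's rule for differentially expressed genes (DEGs), a fold change above 2 with a TPM of at least 10 in either library.

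Emx2 (chr19:59458690-59465357, gene ID 13797), which sets caudal and medial cortical areas and is also needed in the urogenital tract, had 584 reads in the E14 teratoma and 47 in the E14-Sox2TA/WT teratoma. The TPM was 9.50 against 0.667, 14.2-fold lower (interval 10.6 to 19.6). Its close relative Emx1 (chr6:85187931-85204463, gene ID 13796), a marker of cortical excitatory lineages, had 0 reads in the E14 teratoma and 10 in the E14-Sox2TA/WT teratoma, a TPM of 0.312. A count of 0 allows up to 3 reads, or a TPM of 0.104 in the E14 library. The Emx1 value in the E14-Sox2TA/WT library was 2.99-fold above that, which leaves out the counting error of its 10 reads and is not a lower bound. Both values are under a TPM of 1, so Emx1 stood near the detection limit in both tumors, also in the E14 tumor in which Emx2 and Lhx2 were plentiful.

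**Figure D1:**
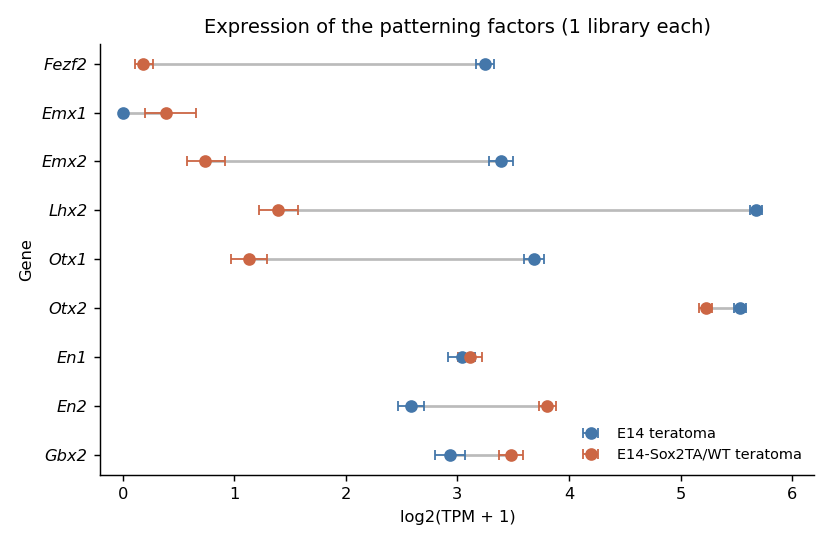
Level of each of the 9 genes as log2(TPM + 1) on the x axis, with 1 point per library, the E14 teratoma in blue and the E14-Sox2TA/WT teratoma in orange. Bars give the 95% exact Poisson interval of the reads of each library. Lhx2, Fezf2, Emx2 and Otx1 lie far to the left in the E14-Sox2TA/WT library, Otx2 and En1 nearly coincide between libraries, and En2 and Gbx2 lie to the right.

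The sequence just upstream of the start sites is shown for 4 genes to set a strongly lower pair, Lhx2 and Fezf2, beside a pair whose levels were close between libraries, Otx2 and En1. The RefSeq promoter table of GRCm38.p6 matched 7 of the 9 genes, with 11 windows of 250 bases before to 50 bases after a start. Otx1 and En2 had no entry. Only bases that overlap no annotated exon are printed, 5′ to 3′ on the strand of the gene, and capitals mark the homeodomain core TAATTA.
Lhx2, chr2:38339031-38339280, plus strand: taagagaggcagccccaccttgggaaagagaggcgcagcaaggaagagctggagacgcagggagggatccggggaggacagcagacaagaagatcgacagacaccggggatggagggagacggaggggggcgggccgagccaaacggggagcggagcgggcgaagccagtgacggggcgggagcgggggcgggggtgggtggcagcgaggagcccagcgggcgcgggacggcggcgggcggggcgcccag
Fezf2, chr14:12345960-12346115, minus strand: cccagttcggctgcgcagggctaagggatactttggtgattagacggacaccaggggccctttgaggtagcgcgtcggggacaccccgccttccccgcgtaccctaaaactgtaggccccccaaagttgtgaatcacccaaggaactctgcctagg
Otx2, chr14:48667645-48667894, minus strand: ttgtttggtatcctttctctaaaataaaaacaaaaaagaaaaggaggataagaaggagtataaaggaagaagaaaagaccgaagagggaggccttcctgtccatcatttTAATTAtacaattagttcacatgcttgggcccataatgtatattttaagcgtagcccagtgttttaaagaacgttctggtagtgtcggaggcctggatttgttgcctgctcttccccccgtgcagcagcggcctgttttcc
En1, chr1:120602237-120602417, plus strand: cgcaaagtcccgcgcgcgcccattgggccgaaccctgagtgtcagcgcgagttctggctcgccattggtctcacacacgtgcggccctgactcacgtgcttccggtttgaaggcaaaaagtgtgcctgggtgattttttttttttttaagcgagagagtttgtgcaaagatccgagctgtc

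In their windows of 300 bases, Lhx2 had 74.7% G+C and 34 CpG, Fezf2 61.3% and 20 CpG, and En1 57.0% and 23 CpG, whereas the first Otx2 window had 41.7% and 6 CpG. The median over all 32851 promoter windows was 52.7% G+C and 7 CpG, so the Lhx2, Fezf2 and En1 windows lie above both medians and the first Otx2 window lies below both. The other 3 Otx2 windows had 47.7%, 51% and 53.7% G+C with 8, 16 and 11 CpG, all above the CpG median. The motifs searched on both strands were the Sox-type cores CATTGT (in 12.6% of all windows) and CTTTGT (18.7%), the octamer ATGCAAAT (1.74%), the Otx-type site TAATCC (7.06%) and TAATTA (5.29%). Among the 11 windows, 0 held a Sox-type core or the octamer. TAATCC was in 1 window, of Otx2, and TAATTA in 3, of which 2 belong to Otx2 and 1 to Emx2. These counts describe letters in short windows and say nothing of enhancers or of binding.

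The Otx genes went apart. Otx1 (chr11:21994764-22001651, gene ID 18423) had 816 reads in the E14 teratoma and 95 in the E14-Sox2TA/WT teratoma. Its TPM was 11.9 and 1.19, 9.999-fold lower (interval 8.08 to 12.5), the 183rd lowest log2 ratio of 11578 genes. Otx2 (chr14:48656781-48667644, gene ID 18424), which is needed to form any forebrain and midbrain at all, had 2587 reads in the E14 teratoma and 2203 in the E14-Sox2TA/WT teratoma. The TPM was 45.2 and 36.4, 1.24-fold lower (interval 1.17 to 1.32), within the 2-fold limit. Separately, the study measured Otx2 in frozen teratomas by qPCR relative to ActB. It reported the ectodermal markers, Otx2 among them, as significantly lower with E14-Sox2TA/WT. Within each library, Otx1 stood at 0.263 of the Otx2 level in the E14 teratoma and at 0.0326 in the E14-Sox2TA/WT teratoma, and this ratio, which does not depend on how the libraries were scaled, was 8.05-fold lower (interval 6.45 to 10.1).

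Paralogs of this kind can share reads, so their coding sequences were compared. Otx1 and Otx2 proteins were identical at 56.2% of the columns of a full-length alignment, gaps included. They were identical at 59 of the 60 residues of the homeodomain, the DNA-binding fold. The codons differ more, with 144 of 180 homeobox bases identical, and the annotated transcripts shared 0 stretches of 50 nt. The same held for Emx1 and Emx2 (56 of 60 residues, 142 of 180 bases) and for En1 and En2 (57 of 60 residues, 150 of 180 bases), again with 0 shared stretches of 50 nt. The part of the homeodomain that holds the recognition helix is printed for the homeobox genes to show these differences, from GENCODE M21 on GRCm38. Codons 48 to 51 of the homeodomain are in capitals (tryptophan, phenylalanine, residue 50, asparagine).
Otx2: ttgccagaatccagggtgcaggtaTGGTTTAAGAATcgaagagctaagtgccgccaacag
Otx1: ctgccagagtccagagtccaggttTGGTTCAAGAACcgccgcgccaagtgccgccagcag
Emx2: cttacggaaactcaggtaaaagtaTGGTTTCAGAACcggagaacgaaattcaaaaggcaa
Emx1: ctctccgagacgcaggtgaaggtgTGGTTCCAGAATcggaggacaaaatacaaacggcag
Lhx2: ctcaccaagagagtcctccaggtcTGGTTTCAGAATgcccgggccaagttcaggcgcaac
En1: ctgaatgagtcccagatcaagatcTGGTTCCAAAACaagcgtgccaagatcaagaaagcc
En2: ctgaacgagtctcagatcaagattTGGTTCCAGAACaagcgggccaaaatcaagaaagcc
Gbx2: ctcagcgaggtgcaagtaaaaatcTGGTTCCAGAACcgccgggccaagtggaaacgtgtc

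All of these stretches are coding. The Otx2 stretch lies on the minus strand of chr14 from 48659288 to 48661319 and that of Otx1 on the minus strand of chr11 from 21997020 to 21998390, both split between exons 4 and 5. Those of Emx2 (chr19:59461832-59463924) and Emx1 (chr6:85194208-85203953) are on the plus strand and split between exons 2 and 3, and that of Lhx2 (chr2:38360083-38368880, plus strand) is split between exons 4 and 5, the intron being left out in each. The En1 (chr1:120607034-120607093, plus strand), En2 (chr5:28170280-28170339, plus strand) and Gbx2 (chr1:89928752-89928811, minus strand) stretches lie within exon 2. Residue 50, which reads the bases next to the TAAT core, was lysine in Otx1 and Otx2 and glutamine in Emx1, Emx2, Lhx2, En1, En2 and Gbx2. Fezf2 has no homeodomain.

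The midbrain-hindbrain genes did not share this drop. En2 (chr5:28165696-28172190, gene ID 13799), which patterns the tectum and cerebellum, had 428 reads in the E14 teratoma and 1242 in the E14-Sox2TA/WT teratoma. Its TPM was 4.99 and 13.0, 2.60-fold higher (interval 2.33 to 2.91). En1 (chr1:120602487-120607991, gene ID 13798), which acts earlier and is needed for midbrain dopaminergic neurons and ventral limb ectoderm, had 444 and 526 reads in the E14 and E14-Sox2TA/WT teratomas. The TPM was 7.21 and 7.66, a ratio of 1.06 whose interval, 0.935 to 1.21, includes 1, so a difference was not detectable on the TPM scale. This depends on scaling, since the log2 ratio of En1 was 0.08 with TPM, 0.25 with FPKM and 0.26 with library totals. Within each library, En1 stood at 1.45 times the En2 level in the E14 teratoma and at 0.590 times in the E14-Sox2TA/WT teratoma, a quotient of 0.408 (interval 0.344 to 0.484).

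Gbx2 (chr1:89927962-89931176, gene ID 14472), on the hindbrain side of the border, had 340 reads in the E14 teratoma and 581 in the E14-Sox2TA/WT teratoma, a TPM of 6.63 and 10.2. It was 1.53-fold higher (interval 1.34 to 1.76), short of the 2-fold limit. Otx2, its partner at the border, exceeded Gbx2 6.83-fold in the E14 teratoma and 3.59-fold in the E14-Sox2TA/WT teratoma, a quotient of 0.525 (interval 0.453 to 0.609).

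**Figure D2:**
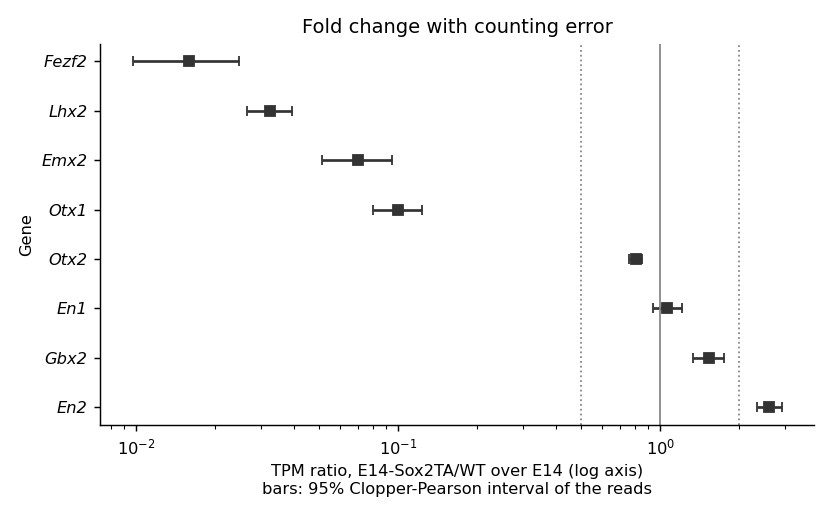
TPM ratio of the E14-Sox2TA/WT to the E14 teratoma for 8 genes on a log axis, with 95% Clopper-Pearson intervals of the reads, a solid line at a ratio of 1 and dotted lines at 2-fold lower and higher. Emx1 is left out because it had 0 reads in the E14 library. Fezf2, Lhx2, Emx2 and Otx1 lie below the lower dotted line, En2 above the upper one, and the interval of En1 crosses the solid line.

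Under the DEG rule, 2 of the 5 genes that reached a TPM of 10 were lower (Lhx2 and Otx1), where 18.7% of all 11578 such genes were, and 1 was higher (En2), where 10.8% were. Otx2 and Gbx2 passed in neither direction. Applied to the deposited TPM, the rule called 2167 genes lower and 1253 higher. Both counts exceed those the study reported for teratomas, so these shares are not the study's own DEG calls. With a TPM of at least 1, which 8 of the 9 genes reached, 4 were lower with Emx2 and Fezf2 added, against 18.9% of all 18558 genes, and 1 was higher, against 19.3%. These 8 genes passed through whichever library held the higher level, and Emx1 did not pass at all. Over all 9 genes the median log2 ratio on this scale was -0.31, which is the value of Otx2, and the ratios ran from -4.28 for Lhx2 to 1.22 for En2.

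**Figure D3:**
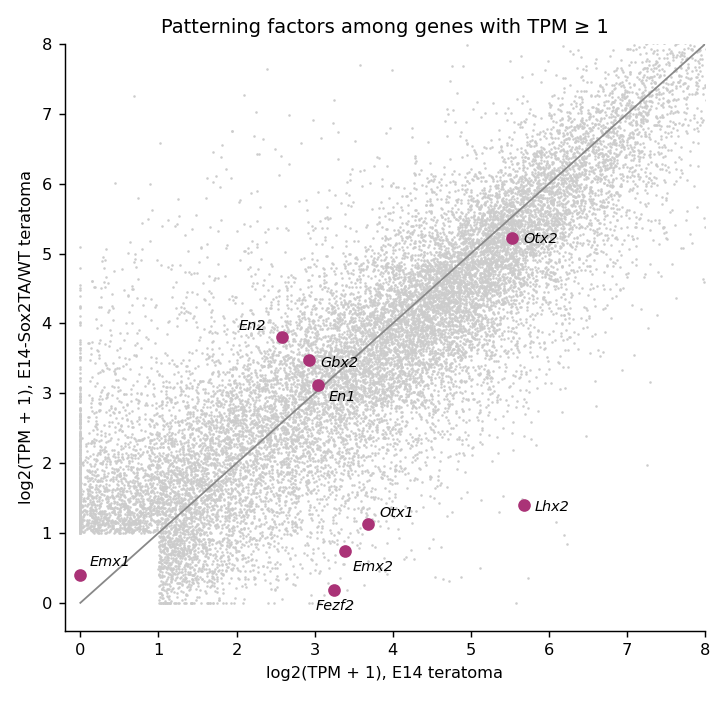
log2(TPM + 1) in the E14 teratoma on the x axis and in the E14-Sox2TA/WT teratoma on the y axis for genes that reached a TPM of 1 in either library in gray, with the 9 patterning factors in purple and a line of equal level. Both axes end at 8, so the most abundant genes are not drawn. Lhx2 lies at the lower edge of the cloud, with TPM 50.2 and 1.63, while Otx2, En1 and Gbx2 lie near the line.

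The order of the levels differed between the tumors. In the E14 teratoma Lhx2 was highest, followed by Otx2, Otx1, Emx2, Fezf2, En1, Gbx2, En2 and Emx1, where the neighbors Emx2 and Fezf2, and En1 and Gbx2, had overlapping counting intervals. In the E14-Sox2TA/WT teratoma the order was Otx2, En2, Gbx2, En1, Lhx2, Otx1, Emx2, Emx1 and Fezf2, where Lhx2 and Otx1, Emx2 and Emx1, and Emx1 and Fezf2 overlapped. Of the TPM summed over all 9 genes, 144 in the E14 teratoma and 71.2 in the E14-Sox2TA/WT teratoma, the 4 cortical field genes made up 47.3% and 3.86%. The 2 Otx genes made up 39.6% and 52.9%, the 2 En genes 8.46% and 29.0%, and Gbx2 4.60% and 14.3%. These shares sum to a fixed total, so a lower share of one group raises the others.

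Measured against Otx2 within each library, pairs added after their values were seen, Lhx2 stood at 1.11 times the Otx2 level in the E14 teratoma and at 0.0447 times in the E14-Sox2TA/WT teratoma, 24.8-fold lower (interval 20.2 to 30.7). Emx2 stood at 0.210 and 0.0183 of Otx2, a quotient of 0.0872 (interval 0.0630 to 0.118). Fezf2 stood at 0.188 and 0.00373, a quotient of 0.0198 (interval 0.0120 to 0.0310).

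**Figure D4:**
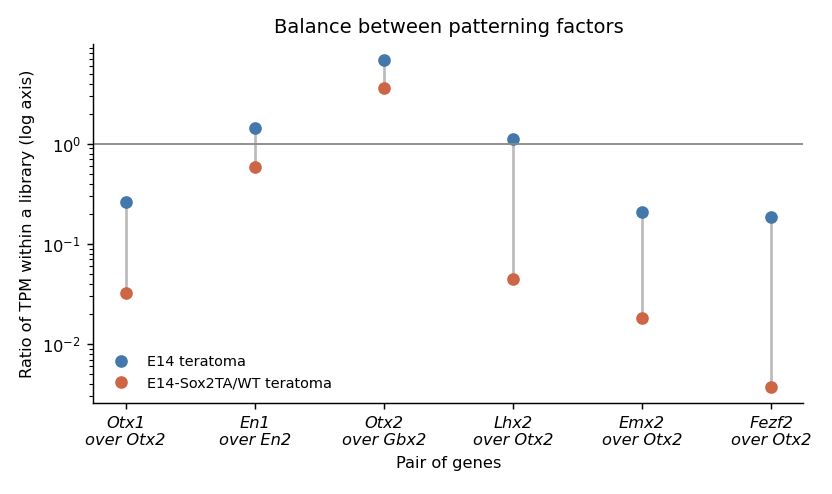
Ratio of TPM between 2 genes of the same library on a log axis for 6 pairs, with the E14 teratoma in blue, the E14-Sox2TA/WT teratoma in orange and a line at equal level. Each ratio is lower with E14-Sox2TA/WT, from 6.83 to 3.59 for Otx2 over Gbx2 and from 1.11 to 0.0447 for Lhx2 over Otx2.

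Most other genes listed for the cortical field were lower too. Of 20 cortical patterning and neuron identity genes, 19 had a TPM of at least 1, of which 12 were more than 2-fold lower and 0 higher, with a median log2 ratio of -1.55. Counts of genes lower or higher in a list are all for this limit of 2-fold and a TPM of at least 1, and medians are on the scale with 1 added to each TPM. Of all 18558 genes at that limit, 18.9% were lower and 19.3% higher. A list count near these shares shows nothing particular to the list. Fezf1, the paralog of Fezf2, had a TPM of 11.9 in the E14 teratoma and 0.508 in the E14-Sox2TA/WT teratoma, 23.4-fold lower, and Nr2f1, which sets caudal cortical areas, was at 91.4 and 27.3. Ldb1, the broadly expressed cofactor that LIM-homeodomain proteins such as Lhx2 bind, was at 112 and 106, close between the tumors.

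The anterior neural plate, eye field and diencephalon list was lower to a similar extent, with 13 of 16 genes more than 2-fold lower, 1 higher and a median of -1.98. Six3 and Six6, homeobox genes of the eye field and the anterior forebrain, were 89.5-fold lower (TPM 23.9 and 0.267) and 80.7-fold lower (33.8 and 0.419). Vax1, a ventral forebrain and optic stalk gene, was at 40.2 and 1.46. It was the gene nearest to Lhx2 among the 156 genes of the lists in the plane of the log2 levels of both libraries, at a distance of 0.33.

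Genes of the isthmic organizer had no common direction, with 2 of 12 genes lower and 2 higher, near the shares of all genes (18.9% and 19.3%). Their median was -0.02, and its sign changed with TMM, FPKM or a smaller pseudocount (0.02 to 0.15). Fgf8 was at a TPM of 33.8 in the E14 teratoma and 18.0 in the E14-Sox2TA/WT teratoma, Wnt1 at 2.07 and 3.30, and Spry2, a feedback inhibitor of FGF signaling, at 46.5 and 28.4. Cnpy1, which is expressed at the midbrain-hindbrain boundary, was 3.26-fold higher (14.4 and 46.9), and Fgf18 2.16-fold lower (6.88 and 3.19). Fgf8 and Wnt1 are named here because they are the signals of the organizer, after their values had been seen. The list was split, with 6 of 12 genes at a ratio below 1. Among genes also named after their values were seen, Fgf17 was lower (4.36 and 2.12), as were Fgf8 and Fgf18. Pax2 (2.07 and 2.63), Pax5 (0.873 and 1.77) and Pax8 (3.69 and 6.16) were higher. Pax2 and Pax8 are also in the intermediate mesoderm list.

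Of 14 midbrain neuron genes, 13 had a TPM of at least 1, of which 4 were lower and 1 higher (18.9% and 19.3% of all genes), with a median of -0.62. Foxa2, a floor plate gene also used in endoderm, was at 35.3 and 57.2, and Gata3 and Tal2, GABAergic neuron regulators, at 8.91 and 3.08 and at 5.67 and 2.03. Foxa1, at 43.9 and 42.0, was the list gene nearest to Otx2.

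Hindbrain and caudal genes went the other way. Of 17, 15 had a TPM of at least 1, of which 1 was lower and 10 higher, with a median of 1.06. Hoxb2 was at a TPM of 11.1 and 27.8 and Hoxa2 at 9.76 and 17.9. Hoxb1, the rhombomere 4 Hox gene, was 9.85-fold higher (0.582 and 5.73), and Cdx1, a posterior gene also used in gut, had 0 reads in the E14 teratoma and 234 in the E14-Sox2TA/WT teratoma. The list summed to a TPM of 40.1 and 100.3.

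**Figure D5:**
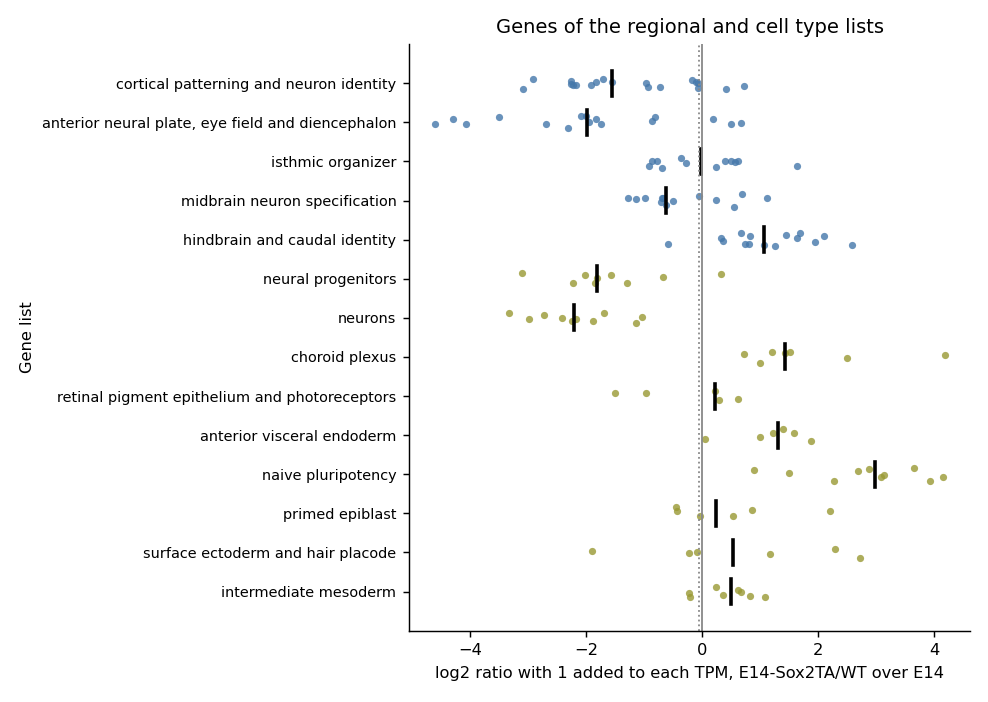
log2 ratio, with 1 added to each TPM, of genes that reached a TPM of 1 in 14 lists, each point 1 gene, with 5 regional lists in blue, 9 marker lists in olive, a black bar at the median, a solid line at 0 and a dotted line at the median of all genes. The cortical, anterior neural plate, neural progenitor and neuron medians lie left of -1.5 and the naive pluripotency median at 2.98. Vertical jitter has no meaning.

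Markers of neural tissue moved with the cortical genes. Of 9 neural progenitor genes, all at a TPM of at least 1, 7 were lower and 0 higher, with a median of -1.82 and a summed TPM of 2919 and 891. Fabp7, of radial glia, was at 2497 and 708, and Sox1 at 48.3 and 9.55. Of 10 neuron genes, 10 were lower (median -2.22), and they summed to a TPM of 2719 and 426, among them Tubb3 (1722 and 170.3), Stmn2 (451 and 121) and Syt1 (50.8 and 5.53). The list gene nearest to Otx1 was the neuronal marker Rbfox3 (12.6 and 1.86). Set against the median of the neural progenitor list, a measure added after the data were seen, the log2 ratio was -2.47 for Lhx2, -1.25 for Fezf2, -0.84 for Emx2 and -0.74 for Otx1, and it was 1.51 for Otx2, 1.89 for En1, 2.37 for Gbx2 and 3.04 for En2. These values have 1 added to each TPM, which shrinks the drop of genes at low levels. With a pseudocount of 0.1 and no centering, the log2 ratio was -4.86 for Lhx2, -5.19 for Fezf2, -3.65 for Emx2 and -3.22 for Otx1. The median of the neural progenitor list was -1.85 on that scale. The part of neural tissue content in the lower levels was not tested.

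Of 4 marker lists for other places in which Otx2 is used, those of choroid plexus and anterior visceral endoderm were mostly higher with E14-Sox2TA/WT, and those of primed epiblast and retina were not. Choroid plexus markers had 7 of 10 genes at a TPM of at least 1, of which 6 were higher and 0 lower (median 1.43, summed TPM 47.7 and 182), led by Ttr, the thyroid hormone carrier (1.32 and 41.1), and Folr1, the folate receptor (7.95 and 49.6). The list genes under that limit, named after their values were seen, were Kl (0.0457 and 0.276), Kcnj13 (0.401 and 0.438) and Kcne2 (0.139 and 0.0439). Anterior visceral endoderm markers were higher in 5 of 6 (median 1.31, summed TPM 55.1 and 169), with Lefty1 at 28.3 and 106, Dkk1 at 9.08 and 25.4 and Hhex at 1.49 and 6.44. Primed epiblast markers were higher in 2 of 6 (median 0.24, summed TPM 121 and 165), with the de novo methyltransferase Dnmt3b at 13.6 and 66.1, Fgf5 at 3.88 and 7.79 and Dnmt3a at 43.5 and 42.4. Retinal pigment epithelium and photoreceptor genes were scarce, with 5 of 12 at a TPM of at least 1, of which 2 were lower and 1 higher, Rlbp1 at 9.26 and 2.60, Rdh5 at 7.76 and 3.48, and Rpe65, a defining gene, at 0 reads in both. The median of that list was 0.22 although its summed TPM was 21.9 and 12.8. Each list is named for a tissue, but its genes, Ttr and Lefty1 included, can be expressed elsewhere. A higher list therefore does not show that more of that tissue was present. The part of these tissues in the Otx2 level was not tested.

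Markers were also counted for tissues that use Gbx2, Lhx2, En1 or Emx2 elsewhere. Genes listed for naive pluripotency were higher in 9 of 10 (median 2.98, summed TPM 60.04 and 682). Pou5f1, a general pluripotency gene not particular to the naive state, was at a TPM of 19.0 and 304. Nanog was at 8.37 and 116 and Zfp42 at 3.88 and 85.2. The list genes nearest to Gbx2 and En2 were Lin28b (6.74 and 10.1, distance 0.022), of the primed epiblast list, and Tbx3 (6.26 and 12.5, distance 0.28), of the naive list. Such likeness rests on 2 libraries and says nothing of shared control. Surface ectoderm and hair placode genes, a tissue in which Lhx2 and En1 are also used, had 6 of 8 at a TPM of at least 1. Of these, 3 were higher and 1 lower (median 0.53, summed TPM 93.1 and 261). The 3 higher genes were keratins, Krt5 at 25.1 and 127, Krt14 at 8.09 and 58.9 and Krt17 at 23.4 and 53.8. Krt17 and the genes that follow are named after their values were seen. Wnt7a was at 16.2 and 3.62, Lef1 at 11.8 and 9.95 and Trp63 at 6.96 and 6.43. Edar was at 0.862 and 0.368 and Wnt10b at 0.549 and 0.473, so the rise was in the keratins only. Lhx2 was 30.8-fold lower. Intermediate mesoderm genes, for the tissue outside the brain in which Emx2 is used, were higher in 3 of 8 and lower in 0 (median 0.49, summed TPM 20.5 and 28.5), with Eya1 at 6.43 and 5.32, Ret at 3.13 and 6.28 and Wt1 at 0.137 and 1.42. The part of these tissues in the results was not tested.

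Noncoding genes that overlap or adjoin the factors had few reads. Gm32517, which overlaps Otx1, and Gm13584, which overlaps Lhx2, had 0 reads in both libraries, and Gm27197, which also overlaps Lhx2, had 15 reads with E14 and 0 with E14-Sox2TA/WT. Emx2os, an antisense RNA gene 54 nt from Emx2, had 33 and 21 reads, and Otx2os1, 1643 nt from Otx2, had 18 and 7. Whether counting used the strand is not given in the sources used here, so reads of these genes and of their partners may not be fully separable. These noncoding genes are far below the counts of Lhx2, Otx1, Otx2 and Emx2 in the E14 library, but the 21 reads of Emx2os are not small beside the 47 of Emx2 in the E14-Sox2TA/WT library. The 9 genes lie on chromosomes 1, 2, 5, 6, 11, 14 and 19, whose median log2 ratios relative to all genes lay between -0.101 and 0.055, small beside the ratios of Lhx2, Fezf2, Emx2, Otx1 and En2.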

How the data were processed

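Poly(A) RNA of E14 and E14-Sox2TA/WT teratomas, 1 library per group, was sequenced on an Illumina NovaSeq instrument. The submitters' processing notes list bcl2fastq 2.20.0, Trimmomatic, HISAT2 2.1.0 and StringTie 2.1.3b, with the builds mm10 and hg19. The authors deposited raw read counts per gene without normalization. They also deposited FPKM, in which counts are corrected for length and depth, and TPM, in which the sum over genes is fixed for each library. The strand setting of the counting is not given in the sources used here.

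From the deposited TPM the ratio of the 2 libraries was computed per gene, with a 95% Clopper-Pearson interval of the read counts, which covers counting error only, and 3 reads allowed by a count of 0. No test between groups could be made with 1 library each. The DEG rule was a fold above 2 with a TPM of at least 10 in either library. Log2 ratios used a pseudocount of 1, which understates the change of genes with low levels. Quotients of within-library ratios have exact conditional intervals, and levels within 1 library have exact Poisson intervals of the reads. A single library per group cannot show variation between tumors or between pieces of a tumor.

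The 9 genes and the 14 gene lists were chosen with earlier results of these data known. Named genes are the 9 factors, per list the 2 most abundant genes by TPM and the 2 whose log2 ratio was farthest from 0, the list gene nearest to each factor with a TPM of at least 10, and genes overlapping a factor, except for some genes that are not reported here. Other named genes are marked as chosen after their values were seen, apart from Y-linked genes, Sox2 and neighbors within 5 kb. RefSeq identifiers (GRCm38) matched 45679 of 45777 genes. Homeoboxes were found in translated GENCODE M21 coding sequences by the residues W-F-any-N, since no protein table was used here.

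Values were recomputed with another pseudocount (0.1), TPM filter or fold threshold (1.5 and 3), with FPKM, with mitochondrial genes left out, and with counts scaled by library total, edgeR TMM or DESeq2 median-of-ratios factors. Ratios were also centered on the median of the chromosome or of genes of like length. The scripts were tested on simulated data. The tools were R 4.3.3 with edgeR 4.0.16 and DESeq2 1.42.0, and Python 3.11.15 with scipy 1.17.1, pandas 2.3.3, matplotlib 3.10.9 and numpy 2.4.6.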

Additional observations from a re-analysis of the deposited data

How the results depend on the processing

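All 9 genes kept the direction of their log2 ratio under the 8 other settings of pseudocount, unit, scaling and centering, which gave -4.86 to -4.16 for Lhx2, -5.19 to -2.72 for Fezf2, -3.65 to -2.55 for Emx2, -3.22 to -2.41 for Otx1, -0.31 to -0.11 for Otx2, 0.09 to 0.26 for En1, 0.49 to 0.73 for Gbx2 and 1.29 to 1.41 for En2. Emx1 ranged from 0.15 to 2.04 on 10 reads. The count of factors more than 2-fold lower was 2 with a TPM of at least 10, 3 with mitochondrial genes left out, where Emx2 reaches a TPM of 10, and 4 with a TPM of at least 1 or without a filter, since more genes then enter. The count higher was 1, and became 2 without a filter, where Emx1 enters, 2 with a fold above 1.5 and 0 with a fold above 3. The median log2 ratio of the 9 genes, -0.31, became -0.11 with FPKM, -0.18 with library totals and -1.43 over the 8 genes that reached a TPM of 1. Scaling moved the median of all genes that reached a TPM of 1 from -0.058 with TPM to 0.12 with FPKM or library totals, and 13 of 14 list medians kept their sign with TMM, FPKM and a pseudocount of 0.1, the isthmic organizer being the exception. No paired analysis was possible because each group has 1 library, and for the same reason no library could be left out. Depth limits Emx1, with 0 and 10 reads, and Fezf2 in the E14-Sox2TA/WT teratoma, with 20. The centering on the neural progenitor median was chosen after seeing the data, and under it Otx2 turned from -0.31 to 1.51, while the other 8 genes kept their direction.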

Other observations

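The protein-coding gene next to Otx1, Ehbp1, chosen after its values were seen, lies 4173 nt away and had 4766 reads in the E14 teratoma and 1345 in the E14-Sox2TA/WT teratoma. Its TPM was 39.9 and 10.1, 3.96-fold lower (95% Clopper-Pearson interval 3.73 to 4.21), beside 9.999-fold for Otx1. Near En2 and Gbx2, both higher in the E14-Sox2TA/WT teratoma, the genes Gm52808 and LOC102637806 had 0 reads in the E14 library and 10 and 15 reads in the E14-Sox2TA/WT library.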
